A study of Homo sapiens with 8 samples.

Results

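A set of 35 genes of the lysosome was followed in A375 cells after TNF: the hydrolases that break down sphingolipids, glycosaminoglycans, glycoproteins, glycogen and lipids, the proteins of the lysosomal membrane, and the transcription factors TFEB and TFE3. Members were the genes of the count table whose symbol equalled one of 35 listed symbols, and each of the 35 matched 1 of 60710 genes. A375, an established cell line from a human metastatic melanoma, was the only line in these libraries, with no genetic change or other agent named in the labels. In 4 independent experiments the cells received 50 ng/mL TNF for 24 hours (TNF) or were left untreated (NT), and polyadenylated RNA was sequenced, giving 4 TNF and 4 NT libraries. Replicates are these experiments, so the p-values measure the spread between cultures of 1 cell line.

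The lysosome is the acidic compartment in which the cell digests lipids, sugars and proteins. Its hydrolases are made in the endoplasmic reticulum and most are carried to the lysosome by receptors that read a mannose 6-phosphate tag. TFEB and TFE3 are related basic helix-loop-helix factors which bind E-boxes in the promoters of many lysosomal and autophagy genes. They are held in the cytosol when phosphorylated by mTORC1 and enter the nucleus on starvation or lysosomal stress, and much of their control is therefore not visible in mRNA. Inherited loss of most of the hydrolases described here causes a lysosomal storage disease.

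Total counts ran between 30989755 and 44373224 per library, and a member had between 55 and 15550 counts in a library. Of 8 target genes of NF-kB used to check the treatment, 8 were higher with TNF. The melanoma lineage markers summed to 1120 to 1325 CPM (counts scaled to library size) in TNF and 986 to 1128 CPM in NT libraries, nearly all of it SOX10, whereas the pigment cell genes TYR, DCT and TYRP1 were at or near 0 and PMEL and MLANA were under 1 CPM in every library. Of these markers S100B passed the test, and it was lower with TNF (2.64 to 3.50 CPM in TNF and 11.7 to 20.3 CPM in NT libraries, log2 fold change -2.50). Keratinocyte markers summed to 56.8 to 62.4 CPM in TNF and 57.9 to 74.2 CPM in NT libraries, most of it KRT10. Within this sum KRT5 was higher with TNF (1.26 to 2.20 CPM in TNF and 0.11 to 0.28 CPM in NT libraries) and KRT14 lower (7.28 to 10.2 CPM in TNF and 15.8 to 22.2 CPM in NT libraries). The part of these markers in the differences of the members was not tested. The short structural RNAs 5.8S, 7SK and 7SL took a larger share of the counts in TNF 4, NT 2 and NT 4 (0.0132% to 0.0138%) than in the other 5 libraries (0.0025% to 0.0042%). The share was small in every library, and those 3 are called rich in these RNAs only by comparison. The member counts were also taken without these 3, which left TNF 1, TNF 2 and TNF 3 against NT 1 and NT 3. As the RNA is from bulk cultures, a change in the RNA of each cell and a change in the mix of cells cannot be told apart.

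All 35 members passed the filter on low counts. In the quasi-likelihood test of edgeR over 16186 genes, with calls made at an adjusted p under 0.05, 12 members were higher and 2 lower with TNF, and the other 21 did not pass. The share of members called higher was 34.3%, against 14.5% of all genes tested, and the share called lower was 5.71%, against 9.9%. In either direction 40.0% of members were called, against 24.4% of all genes. DESeq2 called 13 members higher and 2 lower, against 15.6% and 12.2% of all genes (27.8% in either direction). Upper-quartile factors gave 10 higher and 3 lower, against 12.6% and 13.6% (26.2% in either direction), and library totals 10 and 3, against 11.9% and 15.5% (27.4% in either direction). The genes higher with TNF were CD68, MAN2B1, MANBA, TFE3, LGMN, FUCA1, SMPD1, GRN, NPC1, GM2A, NEU1 and CTSA, and the genes lower with TNF were LIPA and GAA. Most changes were small: the median log2 fold change of the members was 0.13, against 0.00 for all genes tested, the range was -0.43 to 1.26, and CD68 alone had an absolute log2 fold change over 1. The members' CPM summed to 2631 to 2695 in the TNF libraries and 2177 to 2393 in the NT libraries.

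The groups did not overlap for 12 members that were above NT in every TNF library, against 15.6% of all genes, and for 2 that were below it, against 11.7%. In all, 18 members were higher with TNF in 4 of 4 experiments, against 27.4% of all genes, and 4 were lower in 4 of 4, against 25.9%. Libraries of 1 experiment shared their deviations from the group means, and with the experiment as a block in edgeR 17 members were called higher, against 21.3% of all genes, and 4 lower, against 18.2% (39.5% of all genes in either direction). The block added GLA, ARSA, HGSNAT, SGSH and MCOLN1 to the genes higher with TNF, and NAGLU and PPT1 to the genes lower with TNF. Without the 3 libraries rich in 5.8S, 7SK and 7SL RNA the counts were 12 higher and 2 lower, against 12.8% and 8.33% of all genes tested in that fit.

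**Figure D1:**
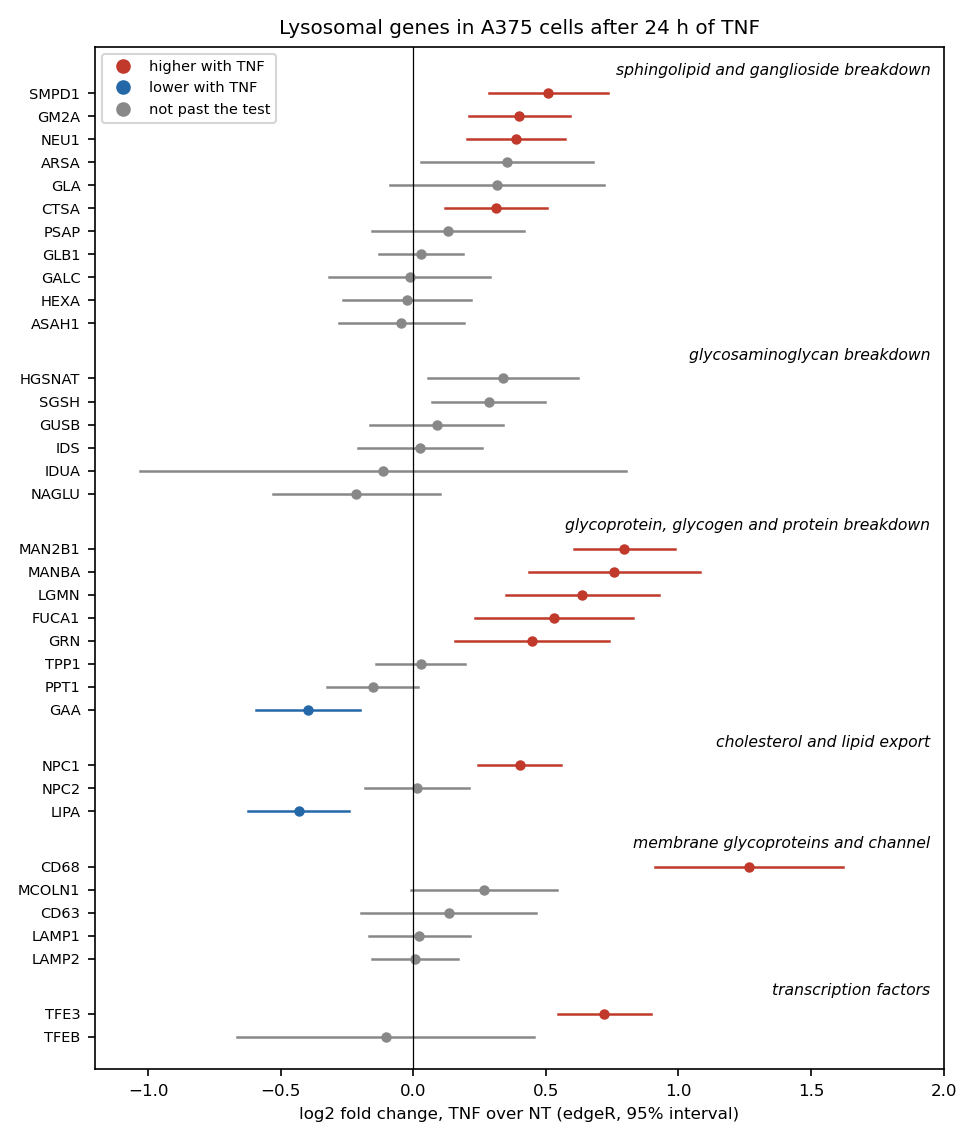
Log2 fold change of each of the 35 lysosomal genes, TNF over NT (x axis, log2 units, point with its 95% interval from edgeR), grouped by role and coloured by whether the gene was higher, lower or not past an adjusted p under 0.05. CD68 stands farthest to the right at 1.26, LIPA (-0.43) and GAA (-0.40) are the genes lower with TNF, and none of the 6 glycosaminoglycan genes passed the test.

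The transcription factors came apart. TFE3 (ENSG00000068323.17, chromosome X, 49028726 to 49043410, minus strand, 10 exons, GRCh38) had 176, 194, 182 and 213 CPM in TNF libraries 1 to 4, against 106, 116, 119 and 123 CPM in NT libraries 1 to 4. Every TNF library lay above every NT library, and experiment 4 gave the highest value in both groups. Expression was 1.65-fold higher with TNF (95% interval 1.46 to 1.86, log2 fold change 0.72, standard error 0.08, adjusted p = 8.59e-05 from edgeR). TFEB (ENSG00000112561.19, chromosome 6, 41683978 to 41736259, minus strand, 9 exons) had 3.24, 1.72, 2.71 and 1.78 CPM in TNF libraries, against 3.21, 2.21, 2.80 and 1.94 CPM in NT libraries. The groups overlapped throughout, and experiments 1 and 3 were above experiments 2 and 4 in both. Its log2 fold change of -0.10 had a 95% interval of -0.66 to 0.46 (adjusted p = 0.820 from edgeR), and changes within this interval remain compatible with the data. Per kilobase of the canonical transcript, TFE3 averaged 58.1 ± 4.92 CPM per kb in TNF and 35.3 ± 2.15 CPM per kb in NT libraries, and TFEB averaged 1.01 ± 0.32 and 1.09 ± 0.25 CPM per kb in TNF and NT libraries (SD, n = 4 each). TFEB had the lowest mean of the 35 members on this scale in both groups, but its range overlapped that of ARSA in both and that of IDUA in TNF libraries, so that their order is not resolved. MITF, another factor of the family and the master regulator of melanocytes, did not pass, at 0.06 on the log2 scale (edgeR adjusted p = 0.694). TFEC, also of the family, was too low to be tested, at most 0.16 CPM in any library.

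Since TFEB and TFE3 bind the E-box, promoters of the members were read for its letters, CACGTG, from 250 bases before to 50 bases after the gene start in the RefSeq table of GRCh38.p14. The table held 25 of the 35 members. Not in it were ASAH1, HEXA, ARSA, PSAP, LAMP2, HGSNAT, MANBA, NAGLU, SGSH and LGMN. The E-box, which reads the same on both strands, was present in 6 of 25 members (24.0%), against 7.43% of all 27305 promoters and 9.97% of the 11279 promoters of genes tested. The longer form TCACGTG, searched on both strands and always overlapping an E-box, was present in 5 of 25 (20.0%), against 3.82% of all promoters and 5.80% of those of genes tested. The members with an E-box were LAMP1 with 6, CTSA, GAA and MCOLN1 with 2 each, and NEU1 and CD63 with 1 each. They fell on all sides of the test: CTSA and NEU1 were higher with TNF, GAA was lower, and LAMP1, MCOLN1 and CD63 did not pass. Among members with a promoter in the table, an E-box was present in 2 of 10 that were higher, 1 of 2 that were lower and 3 of 13 that did not pass. Windows around the matches are shown because they place the same letters beside genes that moved in opposite directions or not past the test, with the E-box in capitals and 5 of the 6 of LAMP1 included. They are CTSA at chr20:45891278-45891330 (plus strand), NEU1 at chr6:31862927-31862962 (minus strand), GAA at chr17:80101490-80101570 (plus strand), MCOLN1 at chr19:7522568-7522623 (plus strand) and LAMP1 at chr13:113297032-113297231 (plus strand).
CTSA: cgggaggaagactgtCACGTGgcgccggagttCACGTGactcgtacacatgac
NEU1: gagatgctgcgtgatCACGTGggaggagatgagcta
GAA: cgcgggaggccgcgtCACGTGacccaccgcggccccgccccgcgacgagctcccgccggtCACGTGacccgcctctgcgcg
MCOLN1: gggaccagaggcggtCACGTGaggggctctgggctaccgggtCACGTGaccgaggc
LAMP1: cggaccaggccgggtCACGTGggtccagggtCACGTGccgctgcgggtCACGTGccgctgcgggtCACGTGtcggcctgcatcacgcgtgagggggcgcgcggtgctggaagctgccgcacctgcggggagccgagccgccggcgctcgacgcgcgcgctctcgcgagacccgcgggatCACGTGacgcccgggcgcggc

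The NF-kB consensus, a motif of 10 letters searched on both strands, was present in 3 of 25 member promoters (12.0%), against 10.8% of all promoters and 13.0% of those of genes tested. The 3 were SMPD1 with 2 matches, TFE3 and MAN2B1, all higher with TNF. By outcome it was present in 3 of 10 members that were higher, 0 of 2 that were lower and 0 of 13 that did not pass. Most of the higher members with a promoter in the table lacked it, and the share among all genes higher with TNF was not taken. The window of TFE3 at chrX:49043486-49043525 (minus strand) is shown because TFE3 had the second smallest adjusted p of the members, with the match in capitals.
TFE3: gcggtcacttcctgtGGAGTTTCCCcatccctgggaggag
A match of letters is a description of the sequence, and whether a factor was bound there was not measured.

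**Figure D2:**
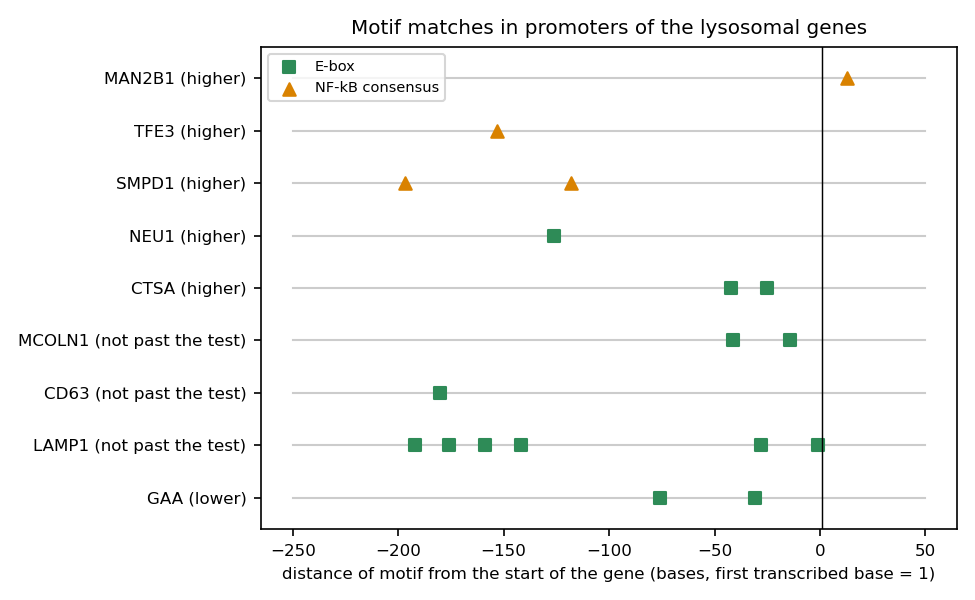
Position of each E-box (squares) and NF-kB consensus match (triangles) in the promoters of the members that hold one, as distance in bases from the start of the gene (x axis, vertical line at the first transcribed base), with the outcome of each gene in brackets. E-boxes lie in the promoters of CTSA and NEU1 (higher), GAA (lower) and LAMP1, MCOLN1 and CD63 (not past the test). NF-kB matches lie in MAN2B1, TFE3 and SMPD1, which are 3 of the 10 higher members with a promoter sequence.

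Among 11 genes of sphingolipid and ganglioside breakdown, TNF-treated cells had 4 higher and 0 lower (36.4% called, against 24.4% of all genes tested). The other 7 did not pass, and the median log2 fold change was 0.31. Even where p under 0.05 was left unadjusted, 0 were lower in edgeR, as in DESeq2 and limma voom. SMPD1, the acid sphingomyelinase that makes ceramide from sphingomyelin (ENSG00000166311.10, chromosome 11, 6390440 to 6394998, plus strand), had 30.1, 27.3, 28.6 and 31.4 CPM in TNF libraries, against 18.5, 23.2, 18.1 and 22.6 CPM in NT libraries. The groups did not overlap, and the NT libraries of experiments 2 and 4 lay above those of 1 and 3. Its expression was 1.42-fold higher with TNF (95% interval 1.22 to 1.66, adjusted p = 0.00418 from edgeR). GM2A encodes the activator protein that presents ganglioside GM2 to hexosaminidase (ENSG00000196743.9, chromosome 5, 151212150 to 151270440, plus strand), and it had 28.3, 31.1, 31.0 and 25.8 CPM in TNF libraries, against 23.6, 21.7, 20.8 and 21.9 CPM in NT libraries. All TNF libraries were above all NT libraries, with the closest approach between TNF 4 and NT 1, and the fold change was 1.32 (95% interval 1.16 to 1.51, adjusted p = 0.00616 from edgeR).

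NEU1 and CTSA act in 1 complex: NEU1 is the lysosomal sialidase, and CTSA, cathepsin A or protective protein, keeps NEU1 and the beta-galactosidase GLB1 stable. NEU1 (ENSG00000204386.12, chromosome 6, 31857659 to 31862905, minus strand) had 25.2, 28.2, 29.8 and 29.1 CPM in TNF libraries, against 21.7, 20.9, 19.9 and 23.2 CPM in NT libraries. The groups were apart, and the fold change was 1.31 (95% interval 1.15 to 1.49, adjusted p = 0.00670 from edgeR). CTSA (ENSG00000064601.20, chromosome 20, 45890144 to 45898949, plus strand) had 146, 134, 138 and 128 CPM in TNF libraries, against 123, 113, 108 and 94.5 CPM in NT libraries. The groups were apart here too, though TNF 4 at 128 CPM lay close to NT 1 at 123 CPM, and experiment 1 was the highest and experiment 4 the lowest in both groups. The fold change of 1.24 (95% interval 1.09 to 1.42, adjusted p = 0.0237 from edgeR) lost its call with upper-quartile factors, with library totals, without the 3 libraries rich in 5.8S, 7SK and 7SL RNA, and without TNF 1, TNF 2, TNF 3, NT 2, NT 3 or NT 4, with adjusted p between 0.0142 and 0.0761 when 1 library was left out. CTSA shares exon sequence on the other strand with PLTP, which had 77.6 to 93.5 CPM in TNF and 87.4 to 104 CPM in NT libraries, and whether the authors' counting used strand is not given in the sources used here. GLB1 did not pass the test, with 38.2 to 39.6 CPM in TNF and 35.2 to 40.6 CPM in NT libraries and a log2 fold change of 0.03 (95% interval -0.13 to 0.19).

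ASAH1, the acid ceramidase that splits ceramide into sphingosine and a fatty acid (ENSG00000104763.20, chromosome 8, 18055992 to 18084998, minus strand), had 18.7, 18.7, 16.4 and 19.0 CPM in TNF libraries, against 16.4, 20.1, 17.2 and 21.4 CPM in NT libraries. The groups overlapped, with NT 1 beside TNF 3, the lowest TNF library, and NT 4 above all of them. Its log2 fold change was -0.04 (95% interval -0.28 to 0.19, adjusted p = 0.815 from edgeR). GLA, the alpha-galactosidase that acts on globotriaosylceramide, had 33.4, 46.1, 43.7 and 61.5 CPM in TNF libraries, against 28.7, 36.3, 38.8 and 44.6 CPM in NT libraries. It was higher with TNF within every experiment, yet the groups overlapped because experiment 1 was low and experiment 4 high in both. The log2 fold change of GLA was 0.32 (adjusted p = 0.251 from edgeR, 0.00356 with the experiment as a block, and 0.0846 to 0.517 with 1 library left out), and that of ARSA, the arylsulfatase that removes sulfate from sulfatide, was 0.35 (adjusted p = 0.112 from edgeR, 0.0297 with the block, and 0.0889 to 0.268 with 1 library left out). GLA overlaps exons of RPL36A, a ribosomal protein gene, on the other strand. GALC, the galactosylceramidase, HEXA, the alpha subunit of hexosaminidase, and PSAP, the precursor of the saposins, had log2 fold changes of -0.01, -0.02 and 0.13, with intervals within -0.32 to 0.42.

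The 6 genes of glycosaminoglycan breakdown gave 0 calls higher and 0 lower, with a median log2 fold change of 0.06. At the shares of all genes tested (14.5% higher, 9.9% lower) few calls would fall among 6 genes. At an unadjusted p under 0.05, 2 were higher (SGSH and HGSNAT) and 0 lower, DESeq2 called 1 higher and limma voom called 0. SGSH, the sulfamidase of heparan sulfate breakdown, had 20.5, 17.6, 18.9 and 19.6 CPM in TNF libraries, against 17.3, 16.6, 15.3 and 13.8 CPM in NT libraries. The groups were just apart, as TNF 2 at 17.6 CPM lay beside NT 1 at 17.3 CPM, and the log2 fold change was 0.28 (adjusted p = 0.0562 from edgeR, 0.0411 from DESeq2, 0.0160 from edgeR with the block, and up to 0.228 over all alternatives). SGSH shares exon sequence on the other strand with SLC26A11, at 11.2 to 12.0 CPM in TNF and 7.93 to 10.1 CPM in NT libraries. HGSNAT, the membrane acetyltransferase of the same pathway, ranged over 22.8 to 30.9 CPM in TNF and 18.6 to 24.8 CPM in NT libraries, at 0.34 on the log2 scale (edgeR adjusted p = 0.0803, 0.00132 with the block, and 0.0356 to 0.197 with 1 library left out, the call being gained without NT 4). NAGLU, the N-acetylglucosaminidase that acts after HGSNAT, was lower with TNF within all 4 experiments, with 13.7 to 20.6 CPM in TNF and 18.0 to 23.6 CPM in NT libraries, but its log2 fold change of -0.21 passed only with the block (edgeR adjusted p = 0.0452, 0.324 without the block, and up to 0.611 over all alternatives).

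IDUA, the alpha-iduronidase, had the largest standard error of the members (0.41 on the log2 scale). It had 2.76, 3.72, 2.36 and 8.09 CPM in TNF libraries, against 3.06, 3.96, 3.59 and 7.68 CPM in NT libraries. Experiment 4 lay far above the rest in both groups, and the log2 fold change of -0.11 carried an interval of -1.03 to 0.80. IDS, the iduronate sulfatase, and GUSB, the beta-glucuronidase, had log2 fold changes of 0.03 and 0.09, with intervals within -0.21 to 0.34.

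The group of 8 genes for glycoprotein, glycogen and protein breakdown included GRN, which encodes a precursor protein and not an enzyme. Of the 8, 5 were higher with TNF and 1 was lower, leaving 2 that did not pass. This is 75% called, against 24.4% of all genes tested, and the median log2 fold change was 0.49. The 3 glycosidases of glycoprotein sugar chains placed in this group were all among the 5. This depends on the grouping, as other glycosidases were placed with sphingolipid breakdown. Of those, NEU1 was higher, whereas GLB1 and HEXA did not pass (log2 fold changes 0.03 and -0.02). MAN2B1, the alpha-mannosidase (ENSG00000104774.13, chromosome 19, 12646511 to 12666742, minus strand, 24 exons), had 160.0, 146, 148 and 139 CPM in TNF libraries, against 94.3, 88.9, 73.8 and 84.7 CPM in NT libraries. The lowest TNF library lay far above the highest NT library, and MAN2B1 had the smallest adjusted p of the 35 members, with a fold change of 1.74 (95% interval 1.52 to 1.98, adjusted p = 7.40e-05 from edgeR). Another protein-coding gene model on the same strand, ENSG00000269242, shares exons with MAN2B1 and had 2.27 to 5.51 CPM in TNF and 1.28 to 2.76 CPM in NT libraries.

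MANBA, the beta-mannosidase (ENSG00000109323.11, chromosome 4, 102630770 to 102760994, minus strand, 17 exons), had 10.8, 13.6, 11.1 and 13.0 CPM in TNF libraries, against 6.97, 6.99, 5.79 and 8.89 CPM in NT libraries. The groups were apart, and the fold change was 1.69 (95% interval 1.35 to 2.11, adjusted p = 0.00320 from edgeR). FUCA1, the alpha-fucosidase (ENSG00000179163.12, chromosome 1, 23845077 to 23868290, minus strand, 8 exons), had 18.1, 16.0, 14.3 and 19.1 CPM in TNF libraries, against 10.9, 12.6, 9.60 and 13.6 CPM in NT libraries. Experiment 3 was the lowest and experiment 4 the highest in both groups, and TNF 3 at 14.3 CPM lay close to NT 4 at 13.6 CPM. The fold change of FUCA1 was 1.44 (95% interval 1.17 to 1.77, adjusted p = 0.0154 from edgeR).

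LGMN is the asparaginyl endopeptidase that matures several cathepsins (ENSG00000100600.15, chromosome 14, 92703807 to 92748679, minus strand, 14 exons). It had 17.7, 23.1, 19.7 and 23.9 CPM in TNF libraries, against 12.3, 14.2, 11.7 and 15.9 CPM in NT libraries, with no overlap and a fold change of 1.56 (95% interval 1.27 to 1.90, adjusted p = 0.00468 from edgeR). GRN encodes progranulin, a precursor whose granulin peptides are released in the lysosome (ENSG00000030582.18, chromosome 17, 44345246 to 44353106, plus strand, 13 exons). GRN had 237, 194, 204 and 161 CPM in TNF libraries, against 172, 155, 137 and 121 CPM in NT libraries. It was the one called member whose groups overlapped, since TNF 4 lay below NT 1, although within each experiment the TNF library was higher. The fold change was 1.36 (95% interval 1.11 to 1.67, adjusted p = 0.0302 from edgeR). As with CTSA, the call was lost with upper-quartile factors and library totals and without TNF 1, TNF 2, TNF 3, NT 2, NT 3 or NT 4 (adjusted p between 0.00940 and 0.0926 with 1 library left out), whereas with the block the adjusted p was 0.000103.

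GAA, the acid alpha-glucosidase that degrades glycogen in the lysosome (ENSG00000171298.13, chromosome 17, 80101533 to 80119881, plus strand, 20 exons), ran the other way. It had 38.7, 36.4, 35.7 and 34.4 CPM in TNF libraries, against 54.5, 46.3, 42.0 and 48.3 CPM in NT libraries. Every TNF library was below every NT library, the TNF libraries were close to each other, and the fold change was 0.759 (95% interval 0.663 to 0.870, adjusted p = 0.00780 from edgeR). PPT1, the thioesterase that removes palmitate from proteins, had 151, 164, 163 and 187 CPM in TNF libraries, against 174, 182, 196 and 187 CPM in NT libraries. Its log2 fold change of -0.15 did not pass (adjusted p = 0.194 from edgeR, 0.0460 with the block, and 0.0307 to 0.389 with 1 library left out, the call being gained without TNF 4), and in experiment 4 the libraries were nearly equal. TPP1, the tripeptidyl peptidase, had a log2 fold change of 0.03 (95% interval -0.14 to 0.20).

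The 3 proteins that handle cholesterol and lipid export differed in direction. LIPA, the acid lipase that frees cholesterol and fatty acids from cholesteryl esters and triglycerides (ENSG00000107798.18, chromosome 10, 89213569 to 89414557, minus strand), had 28.8, 26.2, 29.3 and 24.8 CPM in TNF libraries, against 40.4, 35.2, 37.6 and 34.0 CPM in NT libraries. All TNF libraries were below all NT libraries, and the fold change was 0.741 (95% interval 0.649 to 0.846, adjusted p = 0.00423 from edgeR). The LIPA gene model overlaps exons of the interferon-induced genes IFIT2 and IFIT3 on the other strand, and IFIT3 had 22.5 to 24.1 CPM in TNF and 9.08 to 13.2 CPM in NT libraries. NPC1, the membrane protein that moves free cholesterol out of the lysosome (ENSG00000141458.13, chromosome 18, 23506184 to 23586506, minus strand, 25 exons), had 69.4, 68.7, 73.3 and 64.0 CPM in TNF libraries, against 49.5, 50.5, 55.0 and 53.7 CPM in NT libraries. The lowest TNF library was above the highest NT library, and the fold change was 1.32 (95% interval 1.19 to 1.47, adjusted p = 0.00184 from edgeR). NPC2, the soluble protein that hands cholesterol to NPC1, had a log2 fold change of 0.02 (95% interval -0.18 to 0.21).

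Among 5 membrane glycoproteins and channels, CD68 was higher with TNF and 4 did not pass (20% called, against 24.4% of all genes tested). None was lower in edgeR, even where p under 0.05 was left unadjusted, nor by DESeq2 or limma voom (0 each). CD68, a heavily glycosylated protein of late endosomes and lysosomes that is used as a macrophage marker (ENSG00000129226.14, chromosome 17, 7579491 to 7582111, plus strand, 6 exons), had 71.9, 50.0, 63.6 and 42.0 CPM in TNF libraries, against 27.0, 20.8, 23.7 and 23.1 CPM in NT libraries. The groups were far apart, the TNF libraries spread more widely than the NT libraries, and experiment 1 gave the highest value in both groups. CD68 was 2.40-fold higher with TNF (95% interval 1.88 to 3.07, log2 fold change 1.26, standard error 0.16, adjusted p = 0.000238 from edgeR), the largest fold change of the 35 members. The 8 leukocyte markers together summed to 3.56 to 6.60 CPM in TNF and 5.0 to 7.27 CPM in NT libraries. Of these, PTPRC, the pan-leukocyte marker CD45, was at most 0.06 CPM in every library, CSF1R was higher with TNF (0.55 to 1.25 CPM in TNF and 0.06 to 0.19 CPM in NT libraries) and LYZ was lower (1.75 to 5.14 CPM in TNF and 4.66 to 6.92 CPM in NT libraries). ITGAM, too low to be tested, had 0.14 to 0.94 CPM in TNF and up to 0.03 CPM in NT libraries. The part of these genes in the CD68 difference was not tested. CD68 overlaps exons of a lncRNA on each strand, which had 6.21 to 9.15 CPM (same strand) and 10.9 to 13.9 CPM (other strand) in TNF libraries, against 3.93 to 6.42 CPM and 11.6 to 12.8 CPM in NT libraries.

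LAMP1 and LAMP2, the abundant glycoproteins that line the lysosomal membrane, did not pass the test. LAMP1 had 278, 251, 276 and 229.7 CPM in TNF libraries, against 264, 260.2, 267 and 226 CPM in NT libraries, with a log2 fold change of 0.02 (95% interval -0.17 to 0.21). Experiment 4 was the lowest in both groups, and the other libraries were intermingled. LAMP2 had a log2 fold change of 0.01 (95% interval -0.16 to 0.17), and CD63, a tetraspanin of late endosomes, of 0.13 (95% interval -0.20 to 0.46). CD63 was highest in experiment 4 in both groups, at 503 CPM with TNF and 419 CPM in NT. MCOLN1, the calcium channel TRPML1 whose opening activates calcineurin and TFEB, had 32.9, 34.5, 32.9 and 47.3 CPM in TNF libraries, against 28.0, 29.7, 31.0 and 34.1 CPM in NT libraries. It was higher with TNF within every experiment, but NT 4 was above TNF 1 and TNF 3, and the log2 fold change of 0.27 passed only with the block (edgeR adjusted p = 0.0147, 0.156 without the block, and up to 0.305 over all alternatives). MCOLN1 shares exons on the same strand with PNPLA6, at 148 to 165 CPM in TNF and 127 to 142 CPM in NT libraries.

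**Figure D3:**
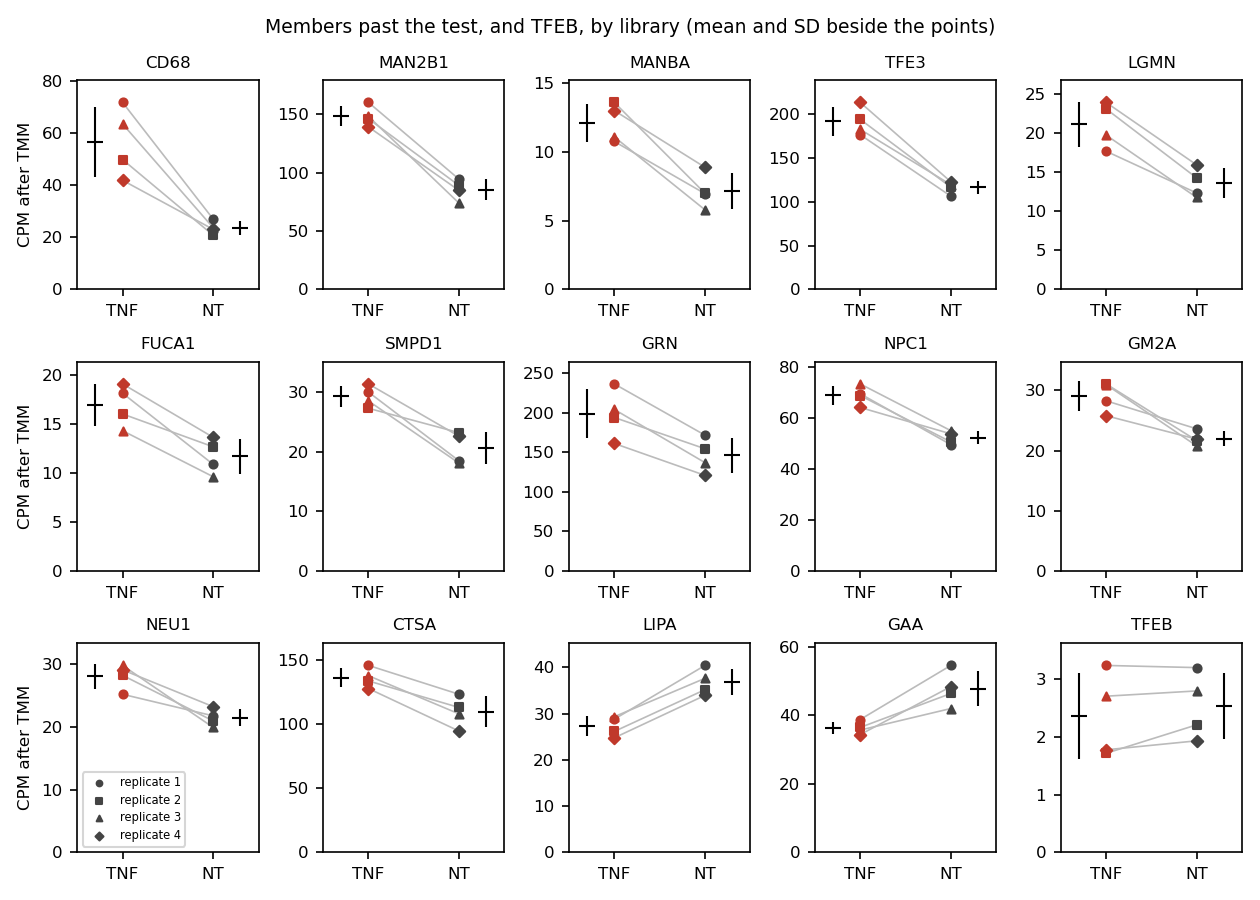
CPM after TMM normalisation (y axis, from 0) of the 14 members past the test and of TFEB in each TNF (red, left) and NT (grey, right) library, with lines joining the libraries of 1 experiment and a bar beside each group for its mean and SD (n = 4). GRN is the called member whose groups overlap, LIPA and GAA are lower with TNF, and TFEB differs more between experiments than between TNF and NT.

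Per kilobase of canonical transcript, CD63 was the most abundant member, at 386 ± 76.6 CPM per kb in TNF and 352 ± 55.6 CPM per kb in NT libraries (SD, n = 4 each). LAMP1, PSAP, GRN, CTSA and PPT1 followed, between 72.8 and 98.8 CPM per kb on average in TNF libraries and between 59.0 and 94.2 CPM per kb in NT libraries. In TNF libraries LAMP1, PSAP and GRN overlapped in their ranges, so that their order on this scale is not resolved. CD68 stood 11th of the 35 members in TNF libraries, at 33.4 ± 7.89 CPM per kb, and 16th in NT libraries, at 13.9 ± 1.51 CPM per kb. At the low end were TFEB, ARSA, IDUA, GALC and MANBA, of which MANBA averaged 3.03 ± 0.35 CPM per kb in TNF and 1.79 ± 0.32 CPM per kb in NT libraries and the others overlapped between groups. The genes that rose were found at high (GRN, CTSA, TFE3), middle (CD68, NPC1) and low (MANBA) levels.

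**Figure D4:**
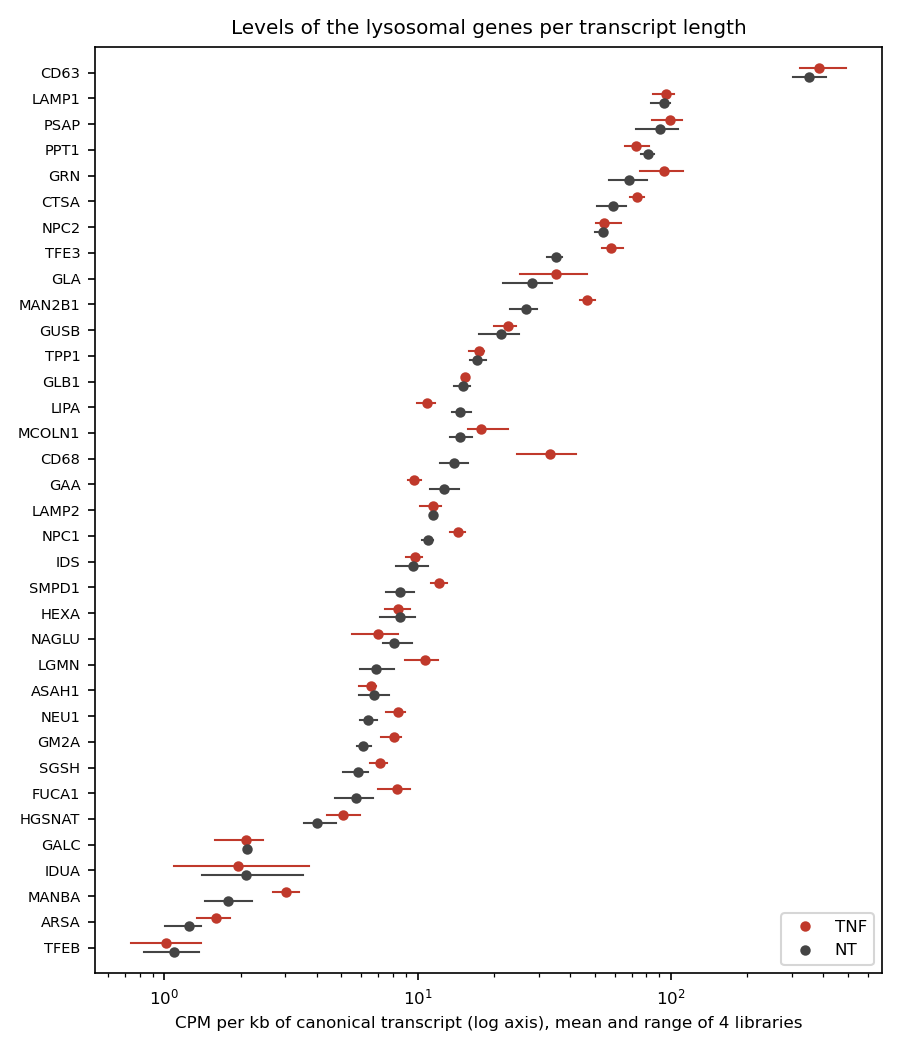
Level of each of the 35 members in CPM per kb of canonical transcript (x axis, log scale), with the mean as a point and the range of 4 libraries as a line, TNF in red above NT in grey, ordered by the NT mean. CD63 is at the top (386 in TNF, 352 in NT) and TFEB, by its mean, at the bottom (1.01 in TNF, 1.09 in NT), and CD68 has the widest gap between groups.

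Genes outside the 35 were read in 6 lists of related function. Over all genes tested, 14.5% were higher and 9.9% lower with TNF (24.4% in either direction). Of 26 other lysosomal hydrolases tested, 3 were higher with TNF and 2 were lower (19.2% called), with a median log2 fold change of 0.01. ARSG, an arylsulfatase of heparan sulfate breakdown, had a log2 fold change of 1.30 and 2.92 to 5.74 CPM in TNF libraries, against 1.65 to 1.86 CPM in NT libraries. SMPDL3A, a phosphodiesterase related to SMPD1, and PLA2G15, the lysosomal phospholipase A2, had log2 fold changes of 0.63 and 0.34. SIAE, the sialate O-acetylesterase, was lower with a log2 fold change of -0.70. With the block 5 were higher and 3 lower. Without the 3 libraries rich in 5.8S, 7SK and 7SL RNA 1 was higher and 1 lower, and without TNF 2 or without NT 2 the lower count was 1.

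Of 24 other lysosomal membrane proteins and transporters, 6 were higher with TNF and 1 was lower (29.2% called, against 24.4% of all genes). The median log2 fold change was -0.04. CD82, a tetraspanin of late endosomes and the plasma membrane, had 78.5, 111, 77.1 and 162 CPM in TNF libraries, against 4.55, 6.69, 5.19 and 9.30 CPM in NT libraries, which is 4.06 on the log2 scale (edgeR adjusted p = 1.30e-05). The groups were more than an order of magnitude apart at their means, and experiment 4 was the highest in both. LAMP3, a LAMP family member induced in maturing dendritic cells, had a log2 fold change of 1.42 at a low level (1.00 to 1.32 CPM in TNF and 0.38 to 0.56 CPM in NT libraries). CD9, another tetraspanin, and SLC17A5, the exporter of sialic acid released by NEU1, had log2 fold changes of 1.04 and 0.75. The gene lower with TNF was TMEM192, named after its values were seen, with a log2 fold change of -0.58, and 4 genes were lower with the block, with upper-quartile factors or with library totals. The count lower was also 2 without TNF 1 or without NT 1 and 3 without TNF 4.

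The proton pump that acidifies the lysosome, the V-ATPase, had 2 of 20 tested subunits higher with TNF and 0 lower in edgeR. This is 10% called, against 24.4% of all genes tested, and the median log2 fold change was 0.14. The count lower was also 0 where p was left unadjusted in edgeR and by DESeq2 and limma voom. ATP6V1D and ATP6V1H, subunits of the cytosolic sector of the pump, had log2 fold changes of 0.39 and 0.24. DESeq2 called 4 and the block fit 7, whereas upper-quartile factors or library totals left 1, as did leaving out TNF 1, NT 1 or NT 3, and 0 remained past the test without TNF 2 or NT 2. Among 17 genes that sort hydrolases to the lysosome, 0 were higher and 3 lower with TNF (17.6% called, against 24.4% of all genes). The median log2 fold change was 0.01. At an unadjusted p under 0.05 in edgeR 1 was higher, and DESeq2 and limma voom called 0 higher. GNPTAB, a subunit of the enzyme that builds the mannose 6-phosphate tag, had a log2 fold change of -0.34, and GGA2, an adaptor that carries tagged hydrolases from the Golgi, of -0.27. SORL1, a sorting receptor, had -1.47 but was under 0.6 CPM in every library. With the block 1 gene was higher and 5 were lower, and 1 was lower without TNF 2, NT 1, NT 2 or NT 3, or without the 3 libraries rich in 5.8S, 7SK and 7SL RNA. In this list 1 gene was also higher without TNF 4.

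The list on control of TFEB and TFE3 held the subunits of mTORC1, the Rag GTPases and other regulators, and also the related factor MITF. Of its 22 tested genes, 2 were higher with TNF and 0 lower (9.09% called, against 24.4% of all genes). The median log2 fold change was 0.06. At an unadjusted p under 0.05 in edgeR 1 was lower, and DESeq2 called 1 lower and limma voom 0. The 2 genes higher were PPP3CA and RRAGC. PPP3CA, a catalytic subunit of calcineurin, which dephosphorylates TFEB, had a log2 fold change of 0.37. RRAGC, a Rag GTPase that recruits TFEB and TFE3 to the lysosome, had 0.25. The other calcineurin subunits of the list, PPP3CB (also catalytic) and PPP3R1, did not pass. With upper-quartile factors 0 were higher and 1 lower, with library totals 0 higher and 2 lower, and with the block 4 higher and 1 lower. The count higher was 0 without TNF 1 or NT 2, 1 without TNF 2, TNF 3 or NT 1, and 4 (with 2 lower) without TNF 4. The autophagy list had 13 of 25 tested genes higher with TNF and 0 lower (52% called, against 24.4% of all genes). The median log2 fold change was 0.29. The count lower was also 0 where p was left unadjusted in edgeR and by DESeq2 or limma voom. OPTN and SQSTM1, receptors that bring ubiquitinated cargo to the autophagosome, had log2 fold changes of 2.74 and 1.36. GABARAPL1, of the ATG8 family, and ULK1, the kinase that starts autophagy, had 0.73 and 0.67. The count higher was 9 with upper-quartile factors or library totals, with 1 gene lower under library totals, and 18 with the block.

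**Figure D5:**
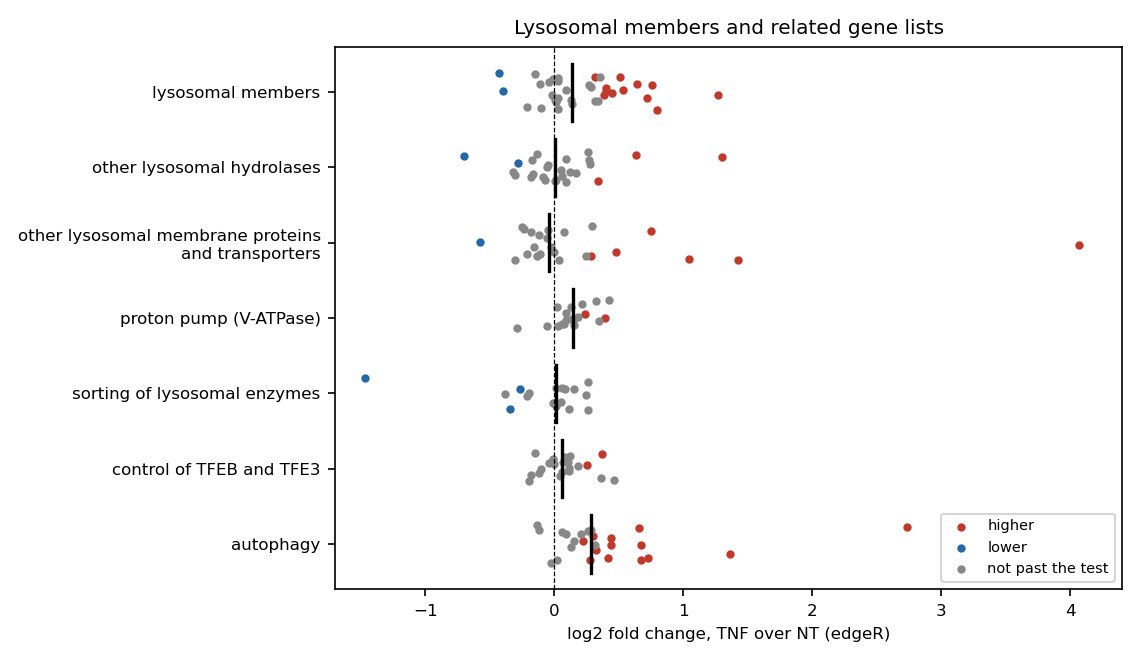
Log2 fold change, TNF over NT (x axis), of the 35 members and of the tested genes of 6 related lists (1 point per gene, coloured by outcome at an adjusted p under 0.05 in edgeR), with a bar at each list's median. The medians lie between -0.04 and 0.29, and single genes such as CD82 (4.06), OPTN (2.74) and SORL1 (-1.47) stand apart from their lists.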

How the data were processed

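RNA was extracted from A375 cells of 4 independent experiments with a column kit, and stranded libraries of polyadenylated RNA were sequenced. Per the methods of the study and the submitters' processing notes, the authors ran bowtie2 against the transcripts of GRCh38 and RSEM 1.2.25 for counting. For bowtie2 the version, for the reads any filter and for RSEM the strand setting were not given in the sources used here. What was deposited is an expected count for each gene and library, without normalization. The NT counts filed under the 4 single NT records were those of another NT experiment, so the table of the whole series was used, whose column names match the titles. The pairing of NT with TNF libraries rests on this choice, and so do the block fit and all comparisons within experiments.

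Expected counts were rounded to whole numbers and filtered with edgeR's filter on low counts (minimum count 10, minimum total 15), which kept 16186 genes. After TMM normalization, treatment was tested alone, without covariates, by the robust quasi-likelihood method of edgeR 4.0.16 in R 4.3.3, and p-values were adjusted by Benjamini-Hochberg across the genes kept, with calls at 0.05. Intervals are 95% intervals of the fitted log2 fold change and fold changes are TNF over NT. CPM were computed with the TMM-scaled library sizes. Gene positions, exons and lengths came from release 44 of GENCODE (GRCh38), whereas the authors used another release, and promoter sequences from RefSeq on GRCh38.p14. Within a group, no 2 libraries were as close as sampling noise allows (the lowest chi-square divided by its degrees of freedom was 11.0), and each counted as 1 replicate. Library totals were 30989755 to 44373224 counts.

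Titles give both libraries of an experiment the same date, and libraries of the same date deviated together from their group means (correlations over 16186 genes of 0.35, 0.17, 0.24 and 0.46), so the experiments pair the libraries. This date was a block in 1 of the alternatives. Further alternatives were DESeq2 1.42.0, limma 3.58.1 (voom), RLE factors, factors from upper quartiles, unscaled library totals, no filter or a stricter one (10 counts in every library), calls at 0.01, each library left out, the 3 libraries rich in 5.8S, 7SK and 7SL RNA left out, and experiment 4 left out. Scripts were tested on simulated data. All 35 members are named, with values per library for those past the threshold, for TFEB and TFE3 and for further members as described, and in each other list up to 4 genes past the threshold with the largest change. The members and lists were chosen with earlier results of these data known. Some genes of the lists are counted but not reported here by name.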

Additional observations from a re-analysis of the deposited data

Results flagged for a closer look

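In 3 of the 70 groups of 4 libraries examined (35 genes in TNF and in NT), 1 library stood far from the other 3 on the log2 CPM scale by Dixon's criterion. Chance gives about 1 in 20 such groups, or 3.5 of 70. ASAH1 had a log2 CPM of 4.04 in TNF 3 (16.4 CPM), below the 4.23 to 4.25 of the other TNF libraries. MCOLN1 had a log2 CPM of 5.57 in TNF 4 (47.3 CPM), above the 5.04 to 5.11 of the other TNF libraries. LAMP1 had a log2 CPM of 7.82 in NT 4 (226 CPM), below the 8.02 to 8.06 of the other NT libraries. None of the 3 genes passed the test with all libraries, and none passed without the library named.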

How the results depend on the processing

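Of the 14 members called, 12 kept direction and call at the threshold of 0.05 under all 18 alternatives. CTSA and GRN lost theirs with upper-quartile factors and library totals and without 6 of the 8 libraries in turn, CTSA also without the 3 libraries rich in 5.8S, 7SK and 7SL RNA. No called member turned round. With the replicate block, in which experiments enter as pairs, 17 members were higher and 4 lower, and over all genes 3451 were higher and 2946 lower, against 2345 and 1603 without it. It changed no call among the 14. Library totals gave 1925 genes higher and 2514 lower, and upper-quartile factors 2045 higher and 2196 lower. At an adjusted p under 0.01, 9 members were higher and 2 lower, and over all genes 1548 were higher and 772 lower. CTSA, GRN and FUCA1 did not pass at this stricter threshold. With 1 library left out, 10 to 12 members were higher and 2 to 3 lower, and over all genes 1880 to 2521 were higher and 1110 to 1896 lower. For several members that were not called, among them TFEB, IDUA, GLA, ARSA and HGSNAT, the intervals were wide enough to include changes of the size seen in called members. The spread of IDUA lay between experiments, with experiment 4 far above the rest in both groups.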
